A study of Mus musculus with 28 samples.

Results

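Gene expression in ventricular myocardium was compared between mice gavaged with Oxalobacter formigenes (Oxf) and mice gavaged with culture medium (vehicle), averaged over sham surgery and nephrectomy. All 28 libraries of the series entered the comparison: the 12 whose titles name Oxf and the 16 whose titles name vehicle. Every mouse was an adult C57BL/6 male that ate a diet with 1% hydroxyproline and 0.5% calcium and had surgery at 6 weeks of age. Surgery was either a 5/6 nephrectomy in 2 stages, a model of chronic kidney disease (CKD), or a sham operation, and the single gavage came on day 7. Vehicle was given to 10 mice with sham surgery (sham-vehicle) and 6 with nephrectomy (CKD-vehicle), and Oxf to 5 with sham surgery (sham-Oxf) and 7 with nephrectomy (CKD-Oxf), each mouse being 1 library of RNA from a heart perfused with saline after ketamine and xylazine anaesthesia. The design plans 10 mice per group, and the remaining mice were not analysed here. Colonization itself was given no value in the labels, and the time of day at which hearts were taken is not given in the sources used here.

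Oxf is a gut anaerobe that uses oxalate as its carbon and energy source, and dietary hydroxyproline is a precursor from which the body makes oxalate. Healthy kidneys clear oxalate, and it accumulates when kidney function is lost. The heart runs mainly on fatty acid oxidation and the respiratory chain of its mitochondria, and part of this program follows the circadian clock of the cardiomyocyte. In that clock, the activators BMAL1 (gene Arntl), CLOCK and NPAS2 bind E-box elements and drive their own repressors, the Per and Cry genes and Bhlhe41, together with the output factors Dbp, Tef and Hlf, which bind D-box elements. Activator and output transcripts therefore peak at opposite times of day.

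The averaged difference is the mean of 2 differences, Oxf minus vehicle after sham surgery and Oxf minus vehicle after nephrectomy, in log2 units. A gene was called when its adjusted p was below 0.05 (edgeR quasi-likelihood test, Benjamini-Hochberg over 24273 genes). By that rule 307 genes were higher with Oxf, which is 1.26% of the genes tested, and 374 were lower, which is 1.54%; together they make 681 genes or 2.81%. The median difference of the 307 was 0.46, and 40 of them rose by at least 1 log2 unit. The median of the 374 was -0.72, and 104 of them fell by at least 1 log2 unit. Slc41a3 and genes of the circadian clock had the smallest p-values. The lower genes included 13 of 78 nuclear genes of the respiratory chain, 6 of 81 cytosolic ribosomal protein genes and 3 of 21 heat shock and cold-inducible genes.

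The libraries differed in measures that moved with the gavage, and these stand beside the results that follow. Depth was 19.8 M to 65.4 M counts (M for mega). The clock score of a library (mean log2 CPM, counts scaled to a library of 1000000, of 11 output and repressor genes minus that of 4 genes of the activator phase) averaged 3.52 with Oxf and 1.25 with vehicle. It ran from -0.467 to 3.91 in the 16 vehicle libraries and from 1.898 to 4.27 in the 12 Oxf libraries. The 7SL RNA, a short abundant non-coding RNA, took 1.83% to 20.6% of the counts of the Oxf libraries and 2.26% to 20.98% of those of the vehicle libraries. On a log2 scale its mean percentage was 2.25 with Oxf and 3.27 with vehicle. The mouse numbers in the titles run from 901 to 920 for vehicle and from 921 to 940 for Oxf, so anything that followed the numbers and the gavage cannot be told apart. Within each group the clock score also tended to rise with mouse number. It was 0.417 in mouse 901 and 3.35 in mouse 910 (sham-vehicle), and -0.467 in 913 and 1.28 in 920 (CKD-vehicle). With Oxf it was 2.73 in 921 and 4.27 in 929 (sham), and 1.898 in 931 and 3.47 in 940 (CKD). The cause of this order was not tested. Replicate 1 of sham-Oxf stood apart, with 15879 genes counted against 27128 to 33995 in the other 27. Without it 868 genes were called, 372 higher and 496 lower, and the calls in the lists below were 10 clock outputs, 4 of the activator phase, 17 of the respiratory chain and 6 of the cytosolic ribosome. Without it 16 genes named below missed the threshold, with adjusted p of 0.0502 to 0.121 (edgeR): Alb, Serpina1a, Serpina1c, Serpina1e, Plin4, mt-Nd6, Lum, Hmgcs1, Cpt2, Gyg, Prdx3, Hspe1, Chordc1, Hnrnpa2b1, Hnrnph1 and Hnrnpc. Replicate 4 of CKD-Oxf had the second lowest number of genes and a 7SL share of 20.6%, and without it 3362 genes were called, among them 53 of the respiratory chain and 43 of the cytosolic ribosome, all lower. Leaving out other libraries could also cut the calls, down to 109 without CKD-vehicle replicate 2. Of the 681 genes, 320 were called in at least 14 of the 28 fits that left 1 library out.

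Clock genes had the smallest p-values among the rises, and promoters of some of them hold the elements named above. Of 12 genes of the clock output list with a promoter in the table, 5 held an E-box and 1 a D-box. Dbp and Arntl had a match to neither. Up to 250 bases before a RefSeq start of transcription are printed 5′ to 3′ for 4 genes that rose and for Slc41a3, the gene with the smallest p, which fell; these 5 were chosen because they hold a match. Each run stops at the first base covered by an annotated exon (GENCODE M21), the sequences are RefSeq's on GRCm38.p6, and capitals mark an E-box (CACGTG) or a D-box (TTATGTAA or TTACGTAA, or the reverse complement).
Ciart, minus strand, chr3:95882252-95882478: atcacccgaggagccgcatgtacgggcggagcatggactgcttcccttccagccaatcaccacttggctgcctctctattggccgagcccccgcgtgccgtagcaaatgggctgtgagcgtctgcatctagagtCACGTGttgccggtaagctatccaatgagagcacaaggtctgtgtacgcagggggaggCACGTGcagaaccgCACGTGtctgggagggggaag
Bhlhe41, minus strand, chr6:145865559-145865670: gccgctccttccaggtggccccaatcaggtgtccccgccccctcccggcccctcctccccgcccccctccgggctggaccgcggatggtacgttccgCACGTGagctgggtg
Tef, plus strand, chr15:81811164-81811413: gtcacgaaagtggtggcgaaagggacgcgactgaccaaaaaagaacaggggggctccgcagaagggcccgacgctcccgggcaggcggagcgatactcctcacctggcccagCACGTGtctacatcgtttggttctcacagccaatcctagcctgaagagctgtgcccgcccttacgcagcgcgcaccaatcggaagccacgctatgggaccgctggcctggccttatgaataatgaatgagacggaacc
Per3, minus strand, chr4:151044666-151044915: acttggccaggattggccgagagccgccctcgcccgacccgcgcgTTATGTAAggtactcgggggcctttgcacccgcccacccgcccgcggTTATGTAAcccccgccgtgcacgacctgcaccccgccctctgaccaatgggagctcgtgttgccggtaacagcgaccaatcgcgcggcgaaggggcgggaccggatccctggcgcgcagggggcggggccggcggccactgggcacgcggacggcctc
Slc41a3, plus strand, chr6:90618996-90619146: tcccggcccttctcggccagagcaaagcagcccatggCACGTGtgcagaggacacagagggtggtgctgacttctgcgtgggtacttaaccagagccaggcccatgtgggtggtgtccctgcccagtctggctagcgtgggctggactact

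Ciart held 3 E-boxes, 44, 58 and 116 bases before the start, and Per3 held 2 D-boxes, 158 and 205 bases before it. Among 11329 protein-coding genes tested that have a promoter in the table (250 bases before to 50 after the start), 10.98% held an E-box and 0.92% a D-box. The E-box share was 16.02% of 231 higher genes and 10.58% of 189 lower genes. The D-box share was 1.73% of the higher and 1.59% of the lower genes. Of all 32851 windows of that length, 7.15% held an E-box and 1.06% a D-box. The Slc41a3 window, with an E-box 213 bases before its start, belongs to a start that lies 14521 bases inside the gene, and the Tef window to one 8993 bases inside it. Which start these hearts used was not tested. A match is a description of the letters in the window only.

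Of the 13 clock output and repressor genes listed, 9 rose and 0 fell, with a median difference of 0.84 against 0.00 over all genes tested. The 9 were Bhlhe41, Hlf, Dbp, Tef, Cry2, Per3, Usp2, Ciart and Per2. The other 4 had positive differences that missed the threshold: Per1 0.84 (adjusted p = 0.067, edgeR), Nr1d1 0.41 (0.12), Tspan4 0.63 (0.18) and Nr1d2 0.32 (0.25).

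Dbp, a D-box activator and a standard readout of clock phase (ENSMUSG00000059824, chr7:45705088-45710203), ran from 24.1 to 95.1 CPM in sham-vehicle with a median of 48.5. In CKD-vehicle it ran from 8.05 to 44.1 CPM with a median of 20.6. The 5 sham-Oxf libraries held 63.1, 96.0, 129.6, 105 and 106 CPM, and CKD-Oxf ran from 76.3 to 130.2 CPM with a median of 88.3. All 7 CKD-Oxf values lay above all 6 CKD-vehicle values, while the sham groups overlapped. The averaged difference was 1.51 ± 0.24 (log2, SE; adjusted p = 0.0026, edgeR), made of 0.94 after sham surgery and 2.08 after nephrectomy. The gene overlaps Sphk2 on the other strand, and whether strand was used in counting is not stated.

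Bhlhe41, an E-box-binding repressor of the clock (chr6:145858243-145865558), had Oxf and vehicle values that did not overlap after either surgery. How many of all genes tested separated in this way was not counted. It ran from 9.76 to 19.5 CPM in sham-vehicle (median 13.5) and from 8.53 to 12.6 CPM in CKD-vehicle (median 9.81). In sham-Oxf the 5 values were 20.5, 27.0, 26.6, 20.2 and 22.5 CPM, and CKD-Oxf ran from 15.7 to 27.6 CPM (median 16.7). Its difference was 0.80 ± 0.12 (adjusted p = 0.0011, edgeR). Per3, a period repressor, ran from 35.5 to 162 CPM in sham-vehicle (median 57.6) and from 16.7 to 83.1 CPM in CKD-vehicle (median 29.97). Sham-Oxf gave 75.3, 178, 149, 210.2 and 222 CPM, and CKD-Oxf ran from 62.6 to 183 CPM (median 139.5). Its groups overlapped after both surgeries, and the difference was 1.43 ± 0.26 (adjusted p = 0.0082, edgeR). The other differences were 1.07 ± 0.16 for Hlf and 1.18 ± 0.19 for Tef, both D-box activators, and 0.72 ± 0.13 for Cry2. Ciart, a repressor of BMAL1, had the largest difference of the list, 1.58 ± 0.34.

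Of the 6 genes listed with the activator phase, 4 fell and 0 rose, with a median of -0.73. Arntl, the gene of BMAL1 (ENSMUSG00000055116, chr7:113207465-113314126), ran from 3.65 to 27.4 CPM in sham-vehicle (median 13.1) and from 19.0 to 37.3 CPM in CKD-vehicle (median 20.8). The sham-Oxf libraries held 2.51, 5.02, 2.15, 1.59 and 1.93 CPM, and CKD-Oxf ran from 3.24 to 15.1 CPM (median 5.96). After nephrectomy the groups did not overlap, and after sham surgery the Oxf libraries reached into the lower end of the vehicle range. The difference was -2.11 ± 0.30 (adjusted p = 0.0010, edgeR). Clock fell by 0.59 and Npas2, a paralog of Clock that also pairs with BMAL1, by 1.07 on the log2 scale, and Nfil3, which represses D-box genes, fell by 0.87. Cry1 (0.34, adjusted p = 0.22, edgeR) did not pass.

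**Figure D1:**
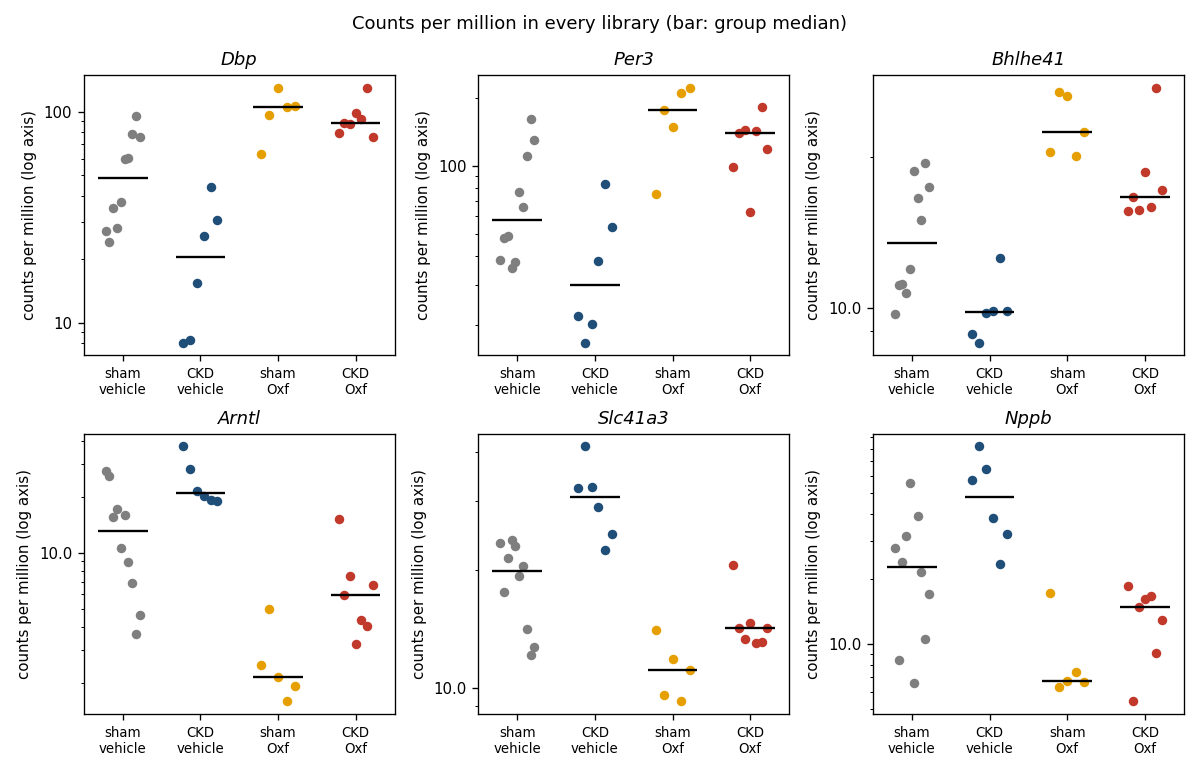
CPM (log axis) of 6 genes in each of the 28 libraries, by group; each point is a mouse and each bar the median of its group. Dbp, Per3 and Bhlhe41 sit higher and Arntl, Slc41a3 and Nppb lower in the Oxf groups, and the sham-vehicle libraries spread widely for Dbp (24.1 to 95.1) and Arntl (3.65 to 27.4).

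The spread within a group gave a measure of the clock that does not use the gavage. In a fit with the clock score beside the 4 group means, 36 genes followed the score within groups, which is 0.148% of those tested. Of these, 14 belong to the 19 genes of both clock lists, most of which make up the score. For the 36, 21 were also called for Oxf, and all 21 differed in the direction of their slope. Many of the 21, such as Dbp, Tef and Arntl, make up the score, which was itself higher with Oxf. For those genes the shared direction was largely built in and is no separate support. The 21 include Slc41a3, Mthfd1l, Wee1, Leo1 and Cipc, which are in neither clock list nor the score. The remaining 15 were not called for Oxf. Of the 307 higher genes, 46 (15.0%) had a slope of the same sign at an unadjusted p below 0.05 (7.91% of all genes had a slope at that level in either direction), and of the 374 lower genes 24 (6.4%), against 5.6% of all genes. With the score as covariate the median difference of the output list was 0.04 and that of the activator list 0.06, as the score was built from most of these genes.

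Several genes outside the clock lists ranked beside them. Tbc1d2b, which encodes a Rab GTPase-activating protein, ran from 24.1 to 33.96 CPM in sham-vehicle (median 30.6) and averaged 26.2 ± 2.32 CPM (SD, n = 6) in CKD-vehicle. In sham-Oxf the 5 values were 45.3, 35.9, 41.5, 41.0 and 38.8 CPM, and CKD-Oxf ran from 30.9 to 42.1 CPM (median 34.2). Neither surgery's groups overlapped, the difference was 0.44 ± 0.07 (adjusted p = 0.0026, edgeR), and the estimate was 0.39 with the clock score as covariate. It overlaps Adamts7 on the other strand and Gm16200 on its own.

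Mthfd1l, the mitochondrial enzyme that makes formate in one-carbon metabolism, rose by 1.56 ± 0.26, from group means of 3.89 ± 2.34 CPM (SD, n = 10) in sham-vehicle and 1.83 ± 1.17 CPM (n = 6) in CKD-vehicle. The Oxf means were 8.76 ± 2.91 CPM (n = 5) after sham surgery and 7.11 ± 2.23 CPM (n = 7) after nephrectomy. Wee1, a kinase that holds back mitosis, rose by 1.00 ± 0.18. Stk35, a serine/threonine kinase, rose by 0.54 ± 0.09, and Slc46a3, a lysosomal transporter, by 0.66 ± 0.12. With the clock score as covariate the estimate for Mthfd1l was 0.08, and that for Wee1 was 0.17.

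Slc41a3, a magnesium transporter of the inner mitochondrial membrane (ENSMUSG00000030089, chr6:90604725-90646412), had the smallest p of all genes. It ran from 12.2 to 24.0 CPM in sham-vehicle (median 19.9) and from 22.5 to 41.4 CPM in CKD-vehicle (median 30.7). Sham-Oxf gave 14.04, 9.61, 11.8, 9.24 and 11.1 CPM, and CKD-Oxf ran from 13.0 to 20.6 CPM (median 14.2). Every CKD-Oxf value lay below every CKD-vehicle value, and the sham groups overlapped between 12.2 and 14.04 CPM. The difference was -0.90 ± 0.12 (adjusted p = 0.00065, edgeR), or -0.22 with the clock score as covariate and -0.78 with the 7SL share. Among 12 tested genes of magnesium transport, Magt1 also fell (-0.61 ± 0.13) and 0 rose, with a list median of 0.03.

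Nppb, which encodes the natriuretic peptide BNP released by stretched ventricle (chr4:147985788-147987205), fell by 1.67 on the log2 scale (SE 0.29, adjusted p = 0.0054, edgeR). It ran from 6.56 to 55.2 CPM in sham-vehicle (median 22.7) and from 23.5 to 81.9 CPM in CKD-vehicle (median 47.6). The sham-Oxf libraries held 17.2, 6.28, 6.75, 7.43 and 6.64 CPM, and CKD-Oxf ran from 5.40 to 18.6 CPM (median 14.8). The CKD groups did not overlap, and the sham groups did. Among the 18 genes of the fetal and stress list Nppb alone was called, and the median was -0.26. Nppa, the atrial natriuretic peptide gene, differed by -0.50 ± 0.36 (adjusted p = 0.43), and Myh7, the fetal myosin heavy chain, by -0.05 ± 0.10 (adjusted p = 0.82; both edgeR). The Nppb estimate was -0.73 with the clock score as covariate and -1.10 with the 7SL share.

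Other called genes with large differences had unlike roles. Spon2, a secreted matrix protein, fell by 2.01 on the log2 scale, from means of 2.87 ± 1.31 CPM in sham-vehicle and 5.86 ± 3.82 in CKD-vehicle to 0.817 ± 0.686 and 1.25 ± 0.546 in the Oxf groups (SD). Leo1, a subunit of the PAF1 transcription elongation complex, fell by 0.73. Ifi27l2a, an interferon-stimulated gene, fell by 1.38 and was the only one of 22 interferon genes called. Igf1, the growth factor, fell by 0.80, and Tsc1, which restrains mTORC1, rose by 0.27. These were the 2 calls among 20 genes of insulin and IGF signalling, whose median was 0.01. Prodh, which starts proline breakdown, rose by 0.54, alone among 11 tested genes of oxalate, glyoxylate and proline metabolism. Its estimate was -0.01 with the clock score as covariate.

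Genes of fuel oxidation had mostly negative differences, and few passed the threshold. Of 25 genes of fatty acid oxidation, Hadhb (-0.77 ± 0.21) and Cpt2 (-0.51 ± 0.14) fell and Cpt1a rose, with a median of -0.38. Cpt1a, which brings fatty acids into the mitochondrion and is the liver form of the enzyme, ran from 35.2 to 58.6 CPM in sham-vehicle (median 46.9) and from 33.0 to 46.6 CPM in CKD-vehicle (median 40.4). In sham-Oxf the 5 values were 57.9, 47.5, 52.1, 69.8 and 71.3 CPM, and CKD-Oxf ran from 46.1 to 85.0 CPM (median 55.2). Its groups overlapped after both surgeries, and the difference was 0.46 ± 0.10 (adjusted p = 0.020, edgeR). All 19 Krebs cycle genes had negative differences (median -0.43), of which Dld, the shared lipoamide dehydrogenase, was called (-0.81). Of 30 genes of glycolysis and glycogen, Gyg (-0.54) and Ppp1r3c (-0.71), both of glycogen synthesis, fell. Of 20 genes of branched-chain amino acid breakdown and its regulator Klf15, Hibch, Acadsb and Dld fell and 0 rose.

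By count, the nuclear-encoded respiratory chain had the most called falls of the 57 lists, and it is among the largest of them. By share, the list of the activator phase had more, with 4 of 6. Of 78 genes tested, 13 fell and 0 rose, 57 were lower at an unadjusted p below 0.05 (11.5% of all genes were), and the median was -0.56. DESeq2 called 37 of them lower (5.01% of all genes) and limma voom 61 (11.7%). Ndufc1, a subunit of complex I, ran from 13.0 to 42.6 CPM in sham-vehicle (median 16.7) and from 17.1 to 48.8 CPM in CKD-vehicle (median 30.8). Sham-Oxf gave 8.58, 10.1, 18.2, 13.8 and 11.1 CPM, and CKD-Oxf ran from 9.83 to 24.1 CPM (median 13.8). The ranges overlapped after both surgeries, and the difference was -0.97 ± 0.20 (adjusted p = 0.015, edgeR). Cox6a2, the heart and muscle form of a cytochrome oxidase subunit, fell by 1.04 and Cox6a1 by 0.63. Usmg5, a small subunit of ATP synthase that is outside the list, had a difference of -1.499. Of 13 protein-coding genes of the mitochondrial genome, mt-Nd6 was called (-0.95), and the list median was -0.37. Without sham-Oxf replicate 1, 0 of the 13 were called. That gene lies opposite mt-Nd5 on the other strand.

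Genes that make, fold and degrade protein also had mostly negative differences. Of 81 cytosolic ribosomal protein genes, 6 fell and 0 rose, with 40 lower at an unadjusted p below 0.05 and a median of -0.40. DESeq2 called 19 of them lower and limma voom 51. The named members were Rpl39 (-0.97), Rps27a (-0.96) and Rps27l (-0.99), and ribosomal protein genes have many near-identical copies, so their counts are uncertain. Of 76 mitochondrial ribosomal genes, 4 fell, and of 38 proteasome genes, 3 fell (Psma6, Psmb2 and Psma1), with 0 rising in either. Of 21 heat shock and cold-inducible genes, Hsp90aa1 (-0.79), Hspe1 (-0.75) and Chordc1 (-0.65) fell, 15 were lower at an unadjusted p below 0.05, and the median was -0.46. Hsp90b1, the Hsp90 of the endoplasmic reticulum, was the 1 called gene of 24 in the stress list of that compartment. It ran from 88.6 to 207 CPM in sham-vehicle and from 113 to 165 CPM in CKD-vehicle. The sham-Oxf libraries held 92.0, 100.4, 119, 83.8 and 86.8 CPM, and CKD-Oxf ran from 76.6 to 128 CPM. Its difference was -0.53 ± 0.11 (adjusted p = 0.019, edgeR), and it was called with each library left out in turn. Sec61g, of the channel through which secreted proteins pass, fell by 1.16 and Srp19, of the signal recognition particle, by 0.51. The peroxidases Prdx1 (-0.98) and Prdx3 (-0.85) were the 2 calls among 24 antioxidant genes.

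The genes of these lists moved with the 7SL share. Within groups, 9151 genes (37.7% of those tested) followed the log2 7SL share at an adjusted p below 0.05, among them 72 of the 78 respiratory chain genes and 70 of the 81 ribosomal genes, with median slopes of 0.38 and 0.28 per log2 unit. Of the 374 lower genes, 268 (71.7%) had a positive slope at an unadjusted p below 0.05, a level that 47.1% of all genes reached in either direction. Of the 307 higher genes, 99 (32.2%) had a negative one. Over all genes, 35.4% had a slope at an unadjusted p below 0.05 that was opposite in sign to their Oxf difference. With the share as covariate the respiratory chain median was -0.16 and the ribosomal median -0.06, with 0 genes called in either. With the clock score instead they were -0.12 and -0.01. In that fit 0 of all 24273 genes were called, so the absence of calls in these lists says nothing about them. Within groups, 0 genes of either list followed the clock score at an adjusted p below 0.05 (edgeR), against 0.148% of all genes. In the fit with the 7SL share 132 genes were called over all, 101 higher and 31 lower, and 83 of these were among the 681.

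**Figure D2:**
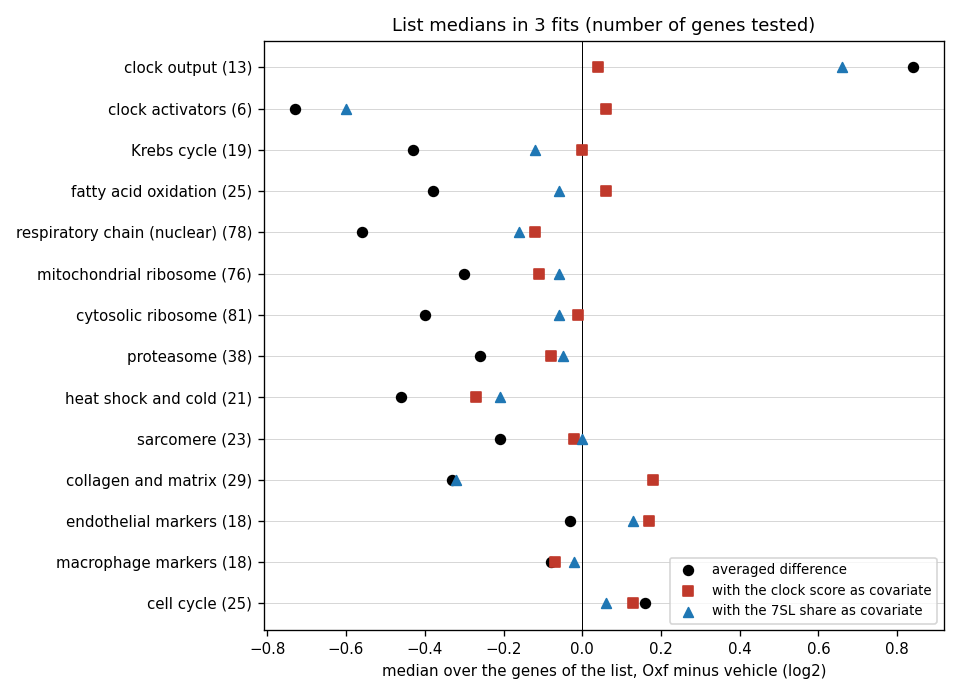
Median Oxf minus vehicle difference (log2) over the tested genes of 14 lists, in the fit without covariate and in the fits with the clock score or the 7SL share as covariate. The respiratory chain median was -0.56 without covariate, -0.12 with the clock score and -0.16 with the 7SL share, and the clock output median was 0.84, 0.04 and 0.66.

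Higher and lower genes differed in transcript length. Among protein-coding genes the longest annotated transcript had a median of 3337.5 bases over all 15574 tested, 4096.5 over the 282 higher and 2675.5 over the 256 lower. Of 756 genes under 1000 bases, 0.13% were higher and 4.89% lower. Of 2213 genes of 6000 bases or more, 2.17% were higher and 0.86% lower. The median difference was -0.24 in the shortest class and 0.09 in the longest, and -0.13 and 0.01 with the 7SL share as covariate. The respiratory chain list had a median length of 992 bases and the ribosomal list 1106. Across the 15574 genes the Spearman correlation of the difference with length was 0.19, and genes are not independent replicates. Fragment size and RNA integrity have no values in the sources used here, and their part in the length pattern was not tested.

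**Figure D3:**
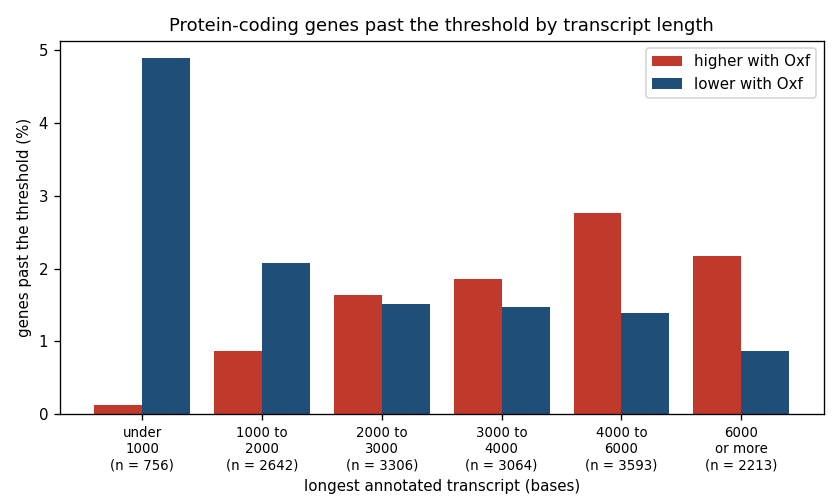
Percentage of tested protein-coding genes called higher (red) or lower (blue) with Oxf, by the length of the longest annotated transcript, with the number of genes tested under each class. The lower share falls from 4.89% under 1000 bases to 0.86% at 6000 bases or more, and the higher share is 0.13% in the shortest class.

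Small structural RNAs lay at the same end. Of 412 tested genes of small nuclear, small nucleolar, small Cajal body and miscellaneous RNAs, 44 were lower and 1 higher, and 276 had negative differences. Over all 24273 genes tested, 1.54% were lower and 1.26% higher, and 12040 had negative differences. Rn7sk, the 7SK RNA that holds the elongation factor P-TEFb inactive, ran from 1925 to 10790 CPM in sham-vehicle and from 2371 to 10720 CPM in CKD-vehicle. In sham-Oxf the 5 values were 2860, 1940, 1934, 2074 and 1624 CPM, and CKD-Oxf ran from 1277 to 5907 CPM. Its difference was -1.36 ± 0.27 (adjusted p = 0.014, edgeR), or -0.65 with the 7SL share as covariate. Processed pseudogenes gave 48 lower (1.81%) and 6 higher (0.23%) genes of 2648, so their lower share was near that of all genes. Of genes that do not code for protein and average 1 log2 CPM or more, the smallest p of a rise was that of the processed pseudogene RP23-404D8.10 (0.75 ± 0.12), and of a fall that of the antisense RNA AC113514.2 (-0.78 ± 0.13), which lies opposite Hectd2. Reads of small RNA families and pseudogenes can match several copies, so single members are uncertain.

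Genes that passed with every single library left out number 90, with 45 higher and 45 lower, of which 41 and 22 code for protein. They were named after their values were seen, where no other rule had named them. Some of the 41 rises shrank with the clock score as covariate and others did not: 12 kept under 0.25 of the difference and 17 kept at least 0.75. With the 7SL share, 40 of the 41 kept at least 0.75, against 11 of the 22 protein-coding falls. Among the 17 were Tbc1d2b, the nuclear envelope protein gene Syne3, the pro-apoptotic Bmf, the prolyl hydroxylase Egln2, the kinase Rps6ka4 and the taurine transporter Slc6a6.

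Syne3 ran from 12.7 to 23.3 CPM in sham-vehicle (median 18.5) and from 12.6 to 21.2 CPM in CKD-vehicle (median 16.8). Sham-Oxf gave 39.8, 24.9, 21.7, 23.1 and 22.8 CPM, and CKD-Oxf ran from 18.0 to 31.1 CPM (median 25.4). Its difference was 0.61 ± 0.12, and 0.61 with the clock score as covariate. Slc6a6 ran from 103 to 231 CPM in sham-vehicle (median 147.2) and from 131 to 160.4 CPM in CKD-vehicle (median 153.3). The sham-Oxf libraries held 239, 155, 179, 255 and 209 CPM, and CKD-Oxf ran from 161 to 291 CPM (median 216.4). The CKD groups did not overlap, and the difference was 0.51 ± 0.11.

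The genes that follow are further members of the 90, picked after their values were seen. Pik3ip1, an inhibitor of PI3 kinase, rose by 0.55, and Phlpp1, a phosphatase of Akt, by 0.48. Eef2k, the kinase that slows translation elongation, rose by 0.51 and Mknk2, which phosphorylates the cap-binding factor eIF4E, by 0.43. The histone deacetylase gene Hdac4 rose by 0.62 and Aldh9a1, an enzyme of carnitine synthesis, by 0.55. Of the falls, Egfr, the epidermal growth factor receptor gene, differed by -0.47 ± 0.10. It ran from 12.5 to 22.6 CPM in sham-vehicle and from 17.3 to 20.4 CPM in CKD-vehicle. In sham-Oxf the 5 values were 12.4, 13.8, 15.4, 11.6 and 9.01 CPM, and CKD-Oxf ran from 12.3 to 18.4 CPM. Adamts4, an aggrecan-cleaving protease, fell by 1.96, Gucy1a3, a subunit of the nitric oxide receptor, by 0.50 and Cald1, the actin-binding caldesmon, by 0.39. Adamts4 overlaps another gene on the other strand.

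Genes of cardiomyocyte excitation gave calls in both directions. Of 26 potassium, sodium and gap junction genes, 3 rose, among them the potassium channel gene Kcnh2 (0.54), and 1 fell, Gja1, which encodes connexin 43 (-0.46). The median of the list was 0.08. Trdn, the triadin of the calcium release unit, fell by 0.85, alone among 18 genes of calcium cycling. Of 23 sarcomere genes Tnni3, cardiac troponin I, fell by 0.72, and the median was -0.21. Of 20 genes of autophagy and lysosomes, Tfeb, the transcription factor of the lysosome program, was called higher (0.33) and 0 were called lower. The list leaned the other way, with 15 negative differences and a median of -0.27. At an unadjusted p below 0.05, 9 were lower and 2 higher, where 11.5% of all genes were in each direction. DESeq2 called 5 lower and 1 higher (5.01% and 3.27% of all genes). With limma voom, 9 were lower and 3 higher (11.7% and 10.3% of all genes). Of 29 splicing factors, Hnrnpa2b1, Hnrnph1 and Hnrnpc fell by 0.30 to 0.36.

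The cell types of the ventricle showed no called shift in their marker lists. Defining markers of cardiomyocytes (Myh6, 11300 to 29700 CPM), endothelium (Pecam1, 113 to 228 CPM), mural cells (Pdgfrb, 61.1 to 132 CPM) and fibroblasts (Pdgfra, 38.7 to 81.5 CPM) were present in all 28 libraries. Among 12 fibroblast, 18 endothelial, 12 mural and 18 macrophage markers, 0 were called, with medians of -0.30, -0.03, -0.23 and -0.08. At an unadjusted p below 0.05, a level that 11.5% of all genes reached in each direction, 4, 3, 4 and 1 were lower and 0, 6, 2 and 1 higher. With limma voom 3, 2, 3 and 1 of these markers were called lower and 0, 1, 2 and 0 higher, and with DESeq2 2, 2, 1 and 0 lower and 0 higher. The smallest p among fibroblast markers was that of Dcn (-0.66 ± 0.20, adjusted p = 0.063, edgeR), a matrix proteoglycan. Summed fibroblast markers were 1000 to 2640 CPM in the Oxf libraries and 1020 to 2940 CPM in the vehicle libraries. Their medians were 1520 CPM in sham-vehicle and 1740 in CKD-vehicle, against 1180 in sham-Oxf and 1260 in CKD-Oxf. In bulk tissue, fewer cells of a type and less RNA per cell cannot be told apart. Of 29 collagen and matrix genes, Lum fell (-0.85, but not without sham-Oxf replicate 1), 15 were lower at an unadjusted p below 0.05, and the median was -0.33, or -0.32 with the 7SL share and 0.18 with the clock score.

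Markers of other tissues varied from mouse to mouse. The 18 tested liver markers had a median of 1.33 (-0.45 after sham surgery and 2.91 after nephrectomy), and Alb, Serpina1a and Serpina1c were called higher. Alb, the albumin gene, ran from 0.279 to 14.3 CPM in sham-vehicle and from 0.176 to 1.42 CPM in CKD-vehicle. Sham-Oxf gave 28.7, 8.20, 0.478, 7.19 and 0.911 CPM, and CKD-Oxf ran from 0.104 to 69.6 CPM. The Oxf and vehicle ranges overlapped after both surgeries. Without sham-Oxf replicate 1, 0 of the liver markers were called. Tnni2, a fast skeletal troponin, was called lower (-3.78 ± 0.92) and was at 15.2 CPM in 1 sham-vehicle and 18.8 CPM in 1 CKD-vehicle library, against at most 1.08 CPM in the other 26. The 13 skeletal muscle markers had a median of -2.67, or -1.28 with DESeq2 and -1.01 with limma voom, which called 0 of them, and 0.39 with the clock score as covariate. Of 15 fat markers 8 had positive and 7 negative differences, with a median of -0.55 after sham surgery and 0.55 after nephrectomy. Plin4 was called (0.49), but 0 were without sham-Oxf replicate 1. Group medians of Adipoq, which defines fat cells, were 7.85 (vehicle) and 1.48 CPM (Oxf) after sham surgery and 1.44 (vehicle) and 2.46 CPM (Oxf) after nephrectomy. Summed fat markers were 943 to 2210 CPM with vehicle and 1320 to 2330 CPM with Oxf. Of atrial, valve, mesothelial, Schwann, lymphoid, neutrophil and erythroid markers (79 tested) 0 were called with edgeR, 4 were higher and 5 lower at an unadjusted p of 0.05 (11.5% of all genes in each direction). DESeq2 called 2 of the 79 higher and 0 lower, against 3.27% and 5.01% of all genes, and limma voom 1 higher and 3 lower, against 10.3% and 11.7%.

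The lists of FoxO and atrophy genes, glucocorticoid response, adrenergic signalling, major histocompatibility genes, cytokines and inflammasome, complement, cell cycle, immediate-early genes, hypoxia, aryl hydrocarbon receptor targets and NAD metabolism had 0 calls with edgeR among 200 genes. At an unadjusted p below 0.05, 29 of them were higher and 16 lower, where 11.5% of all genes were in each direction. DESeq2 called 6 higher and 5 lower (3.27% and 5.01% of all genes), and limma voom 22 higher and 11 lower (10.3% and 11.7% of all genes). The smallest p among them was that of Cdkn1a, the cell cycle inhibitor p21 (-0.94 ± 0.27, adjusted p = 0.0501, edgeR). In the cell cycle list 21 of 25 genes had positive differences, with a median of 0.16 and Plk1 at 1.03 (adjusted p = 0.054, edgeR). Iron handling had 1 call, Tfrc, the transferrin receptor (-0.68), lipid storage and synthesis 1, the sterol enzyme gene Hmgcs1 (-0.50, but not without sham-Oxf replicate 1), and histone clusters 1, Hist2h4 (-0.62).

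The difference was then taken within each surgery. Of the 307 higher genes, 257 differed at an unadjusted p below 0.05 after sham surgery and 272 after nephrectomy, and 222 in both. Of the 374 lower genes the counts were 342, 330 and 298. Over all 24273 genes, in either direction, they were 3054, 3178 and 841. The averaged difference is built from both surgeries, so the counts of the called genes describe the calls and are no separate support. The median rise was 0.43 after sham surgery and 0.48 after nephrectomy, and the median fall -0.71 and -0.69. Over all 24273 genes the differences after the 2 surgeries, which share no library, had a Spearman correlation of 0.41 across genes. The clock score, the 7SL share and the mouse number moved with the gavage after both surgeries.

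The interaction of gavage and surgery gave 0 genes at an adjusted p below 0.05 (0.0% of those tested) and 862 at an unadjusted p below 0.05 (3.55%). DESeq2 also gave 0, with 1033 unadjusted, and limma voom 0, with 1503. Among the clock genes, Dbp differed by 0.94 after sham surgery and 2.08 after nephrectomy (unadjusted p of the difference = 0.024, edgeR), and Arntl by -2.36 and -1.85 (0.37). Alb, Serpina1a, Serpina1c and Serpina1e had differences of 0.84 to 1.55 after sham surgery and 3.51 to 4.51 after nephrectomy; the Serpina1 genes are near-identical copies whose counts are uncertain.

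**Figure D4:**
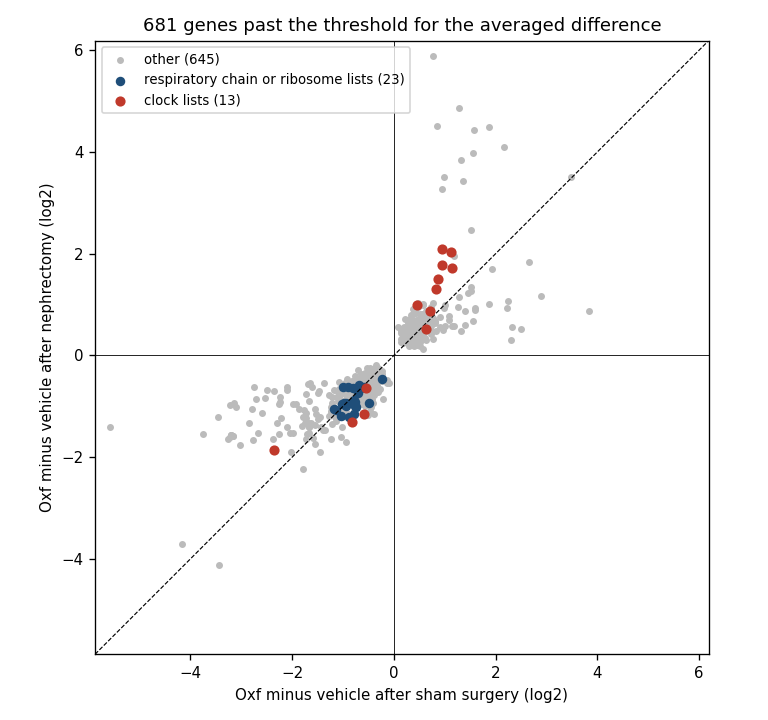
Oxf minus vehicle difference (log2) after sham surgery (horizontal) and after nephrectomy (vertical) for the 681 called genes; the dashed line marks equal differences. Respiratory chain and ribosome genes (blue) lie near the line below 0, and the points high above the line on the right include the liver genes. Genes of both clock lists are red: most clock output genes lie above the line, and the called genes of the activator phase are those that fell.

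The clock score could not be separated from the gavage by a covariate. With it in the fit, 0 genes were called (1858 at an unadjusted p below 0.05), and the median SE of the 307 higher genes went from 0.11 to 0.172 and that of the 374 lower genes from 0.180 to 0.305. The median difference of the higher genes was then 0.38 and that of the lower genes -0.48, with 298 of 307 and 371 of 374 keeping their sign. With the 7SL share instead, the medians were 0.38 and -0.40 and the median SE 0.113 and 0.167, and all 681 kept their sign.

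**Figure D5:**
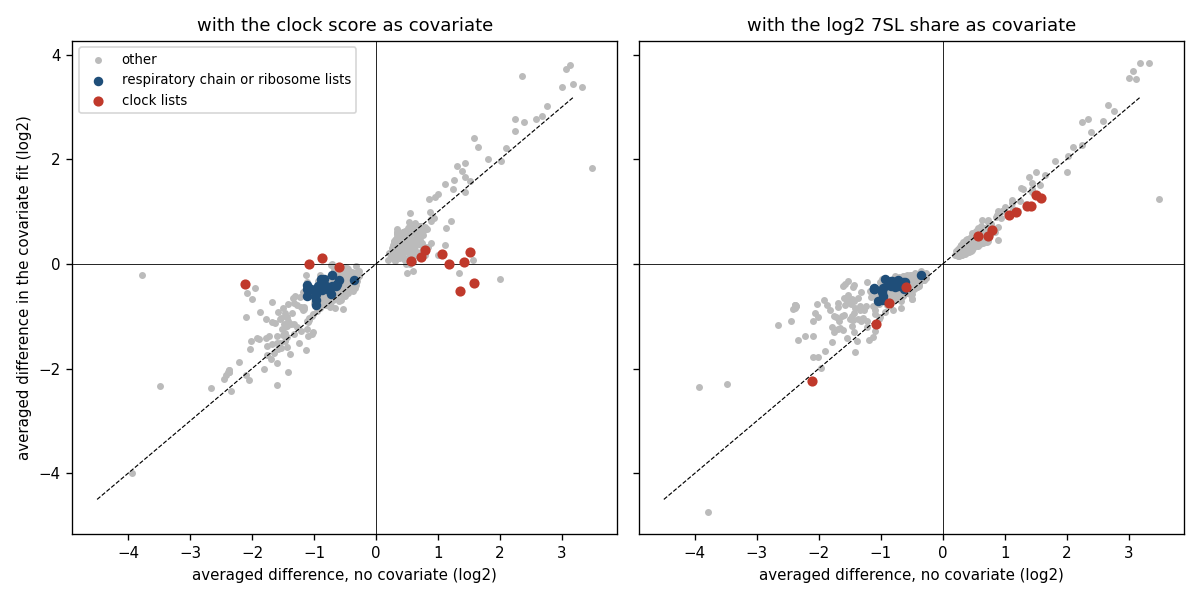
Averaged difference (log2) of the 681 called genes without covariate (horizontal) and with the clock score (left panel, vertical) or the log2 7SL share (right panel, vertical) in the fit; the dashed line marks equal values. With the clock score most clock genes (red) drop to near 0, and with the 7SL share most lower genes lie closer to 0 than the line while the clock genes stay near it.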

How the data were processed

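The authors deposited 1 table of raw gene counts for 28 libraries, 1 per mouse, with 45513 gene rows, of which 45465 identifiers were found in GENCODE M21 (GRCm38). The submitters' processing notes name mm10, STAR 2.6.1d, featureCounts 1.6.3, FastQC 0.11.7 and MultiQC 1.9; strand, annotation and the treatment of reads with several matches are not given in the sources used here. Every row carries a name, and 0 columns had no matching sample. Groups came from the titles. Besides surgery and gavage, the titles give 1 number per mouse. The p-values set differences of group means against the spread between mice within groups. Each gavage holds 1 run of mouse numbers, so that spread leaves out any difference between the runs.

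Counts were tested in R 4.3.3 with edgeR 4.0.16: TMM factors, filterByExpr by group (minimum count 10, 24273 genes left), estimateDisp, a robust quasi-likelihood fit of 4 group means and F tests, adjusted by Benjamini-Hochberg with a threshold of 0.05. The main contrast averaged both surgeries with equal weight. The SE is the absolute log2 difference divided by the square root of F. CPM are counts scaled to 1000000 per library with the TMM factors, and log2 CPM used a prior count of 2. The 7SL share is that of Rn7s1 and Rn7s2, near-identical copies. Lengths are of the longest annotated transcript. The fit was run on simulated counts with 200 changed genes, drawn independently for each gene. That simulation has no factor shared across genes, such as the clock score or the 7SL share, so it does not bear on their part in the calls.

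The comparison, the 57 gene lists and the markers were chosen with earlier results of these data known. Genes were named by rule: protein-coding, mean of at least 1 log2 CPM and called, the 10 smallest p and 5 largest changes per direction; per list the 3 smallest p per direction, or the smallest p where none passed; Dbp, Arntl, Nppa, Nppb and Myh7; and 2 per direction of other types. Retnlg, Hjv and Nampt were not analysed here. Some genes the rule names are not reported here. Alternatives were DESeq2 1.42.0, limma 3.58.1 voom with sample weights, other scalings, no filter, covariates, and each library left out.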

Additional observations from a re-analysis of the deposited data

Results flagged for a closer look

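In 25 of 124 checks the highest or lowest library of a group lay further from its neighbour than Dixon's 95% limit allows, where chance gives about 6.2; the ratios are the gap over the range of the group, and several checks share a library. In sham-Oxf, replicate 1 was lowest in genes counted (0.796) and in clock score (0.712), and highest in 7SL share (0.784), Nppb (0.895), Syne3 (0.827) and Alb (0.726). Replicate 2 of that group was highest for Arntl (0.732, 5.02 against 2.51 CPM) and lowest for Myh7 (0.762).

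In CKD-Oxf, replicate 4 was highest for Usmg5 (0.647), Ndufc1 (0.578), Sec61g (0.684), Prdx1 (0.614) and Alb (0.791, 69.6 against 14.6 CPM). Replicate 1 was lowest in clock score (0.647, 1.898 against 3.18) and highest for Arntl (0.637) and Slc41a3 (0.788). Replicate 6 was highest for Dbp (0.584) and Bhlhe41 (0.744), and replicate 5 was lowest for Nppa (0.578).

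In the vehicle groups, Tnni2 was highest in sham-vehicle replicate 6 (0.968, 15.2 against 0.539 CPM) and CKD-vehicle replicate 1 (0.949, 18.8 against 1.08 CPM). Slc6a6 was highest in sham-vehicle replicate 6 (0.509) and lowest in CKD-vehicle replicate 1 (0.663). CKD-vehicle replicate 5 was highest for Bhlhe41 (0.671) and lowest for Hsp90b1 (0.655).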

How the results depend on the processing

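The 681 calls became 764 with DESeq2 size factors, 802 with upper quartile scaling, 161 with no filter on low counts, 2006 with DESeq2 and 5336 with limma voom. They became 0 with the clock score as covariate, 132 with the 7SL share and 0 with both (2752 unadjusted). The interaction gave 0 calls under each alternative. Leaving out 1 library gave 109 to 3362 calls. The count left the range within 1.5 times of 681 without sham-vehicle replicates 3 (301), 4 (174), 5 (285), 6 (1166), 7 (203) and 10 (451) and without CKD-vehicle replicates 1 (165), 2 (109), 3 (111), 4 (195) and 5 (1897). It also did so without sham-Oxf replicates 2 (408), 4 (226) and 5 (131) and without CKD-Oxf replicates 1 (279), 2 (228), 3 (125), 4 (3362), 5 (167) and 6 (190). The cause was not tested. The 36 genes that follow the clock score became 14 with a score of Dbp and Arntl alone, and 16 to 46 with 1 library left out (22 without sham-vehicle replicate 8, 16 without 9, 23 without 10). Of 142 named genes, 140 of them called, direction and call held for 141 under DESeq2, 141 with its size factors, 142 with upper quartile scaling, 137 with limma voom, 94 with no filter, 51 with the 7SL share, 1 with the clock score and 0 with both. With single libraries left out, 0 to 49 of them missed the threshold, the most without CKD-vehicle replicate 2.

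Signs turned with the clock score for Tef (-0.00), Ciart (-0.37), Npas2 (0.01), Ppp1r3c (0.00), Prodh (-0.01) and Nppa (0.10), and with both covariates for Tef (-0.04), Per3 (-0.04), Ciart (-0.44), Ppp1r3c (0.07), Prodh (-0.04), Nppa (0.06) and Myh7 (0.02). Myh7 was 0.03 with the 7SL share, and Serpina1c -0.02 with limma voom. No paired analysis was possible because the labels give no replicate numbers. Small RNAs and genes with few counts are limited by depth and by reads that match several copies.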

Other observations

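The zinc finger genes Zfp960 and Zfp97, which lie side by side on chromosome 17, passed with every single library left out. Zfp960 had means of 13.9 ± 4.49 CPM in sham-vehicle (SD, n = 10), 18.4 ± 4.91 in CKD-vehicle (n = 6), 7.95 ± 1.91 in sham-Oxf (n = 5) and 11.1 ± 3.69 in CKD-Oxf (n = 7). Zfp97 followed it closely, with 15.1 ± 4.96, 20.4 ± 6.08, 8.47 ± 2.15 and 12.2 ± 4.22 CPM, so reads shared by the copies may have been counted at both. Aspn, the matrix proteoglycan asporin, had means of 14.2 ± 4.96, 14.4 ± 5.72, 7.47 ± 1.502 and 8.47 ± 2.95 CPM in the same order. These 3 genes were chosen after their values were seen.

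Immunoglobulin genes varied widely from mouse to mouse. Of 72 variable-region genes tested, 63 had positive differences, with a median of 1.31, and 1 was called, while summed lymphoid markers ran from 7.82 to 1160 CPM in the Oxf libraries and from 7.93 to 307 CPM in the vehicle libraries. The median was -1.56 with the 7SL share as covariate.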
